A study of Gallus gallus with 16 samples.

Results

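The prostaglandin genes followed here were 10 genes for the synthesis, reception and breakdown of prostaglandins, chosen by their symbols: PLA2G4A, PTGS2, PTGS1, PTGES, PTGES3, PTGER2, PTGER3, PTGER4, PTGFR and HPGD. All 10 were found among the 18151 gene rows of the RNA-Seq files, each in all 16 libraries. The libraries were made from primary granulosa cells of White Leghorn hens aged 25 to 30 weeks, taken from 4 hens. phGC came from pre-hierarchical small yellow follicles and poGC from pre-ovulatory follicles. After a culture of 16 h the cells of each stage were transfected with FOXL2-siRNA (phGC-KD and poGC-KD) or with NC-siRNA, a nonsense control (phGC-CT and poGC-CT), and they were collected 48 h later. Each of the 4 groups had 4 libraries. All groups were therefore cultured and transfected cells, and no untransfected or freshly isolated cells were sequenced here. No source used here tells which hen or culture gave which library, so that the p-values measure the spread between these libraries, which may be technical.

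Prostaglandins are made from arachidonic acid that a phospholipase frees from the cell membrane. The cyclooxygenases turn arachidonic acid into prostaglandin H, and terminal synthases convert this into prostaglandin E and the other active forms, which act on nearby cells through receptors in the membrane and are then taken up and inactivated by a dehydrogenase. In mammals the luteinizing hormone surge induces PTGS2 in the granulosa cells of the ovulatory follicle, and the prostaglandin E made there is needed for ovulation. In the hen, prostaglandins of the large pre-ovulatory follicles and of the ruptured follicle take part in the timing of egg laying. FOXL2 is a forkhead transcription factor of granulosa cells.

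Both knockdown comparisons rest on the same FOXL2-siRNA duplex and the same NC-siRNA duplex, which distinguish the KD from the CT groups. Changes through FOXL2 and changes through other actions of a duplex therefore cannot be told apart here. Both strands of each duplex are shown 5′ to 3′, with the 19 bases that pair with the other strand in capitals and the 2-base overhang in lower case.
FOXL2-siRNA, strand 1: GCCUCAACGAGUGCUUCAUtt
FOXL2-siRNA, strand 2: AUGAAGCACUCGUUGAGGCtt
NC-siRNA, strand 1: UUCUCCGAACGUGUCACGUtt
NC-siRNA, strand 2: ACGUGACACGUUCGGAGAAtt

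Library totals ran from 29979116 to 56121795 counts, and no library was a copy of another. Among libraries with the same siRNA, depth differed by stage without overlap. The totals were 36191442 to 53062138 in poGC-CT against 30476674 to 32997177 in phGC-CT, and 45697479 to 56121795 in poGC-KD against 29979116 to 44937588 in phGC-KD. FOXL2 itself was measured at 688 to 769 CPM (counts scaled to a library of 1e+06, TMM-normalized over all 16 libraries) in poGC-CT and at 393 to 508 CPM in poGC-KD, without overlap, a log2 change of -0.68 (SE 0.078, edgeR quasi-likelihood adjusted p = 0.000193). In phGC it was measured at 472 to 682 CPM in phGC-CT and at 363 to 506 CPM in phGC-KD. These ranges overlapped, and the log2 change of -0.43 (SE 0.14) did not pass the test (edgeR unadjusted p = 0.012, adjusted p = 0.0835). The fitted FOXL2 level after FOXL2-siRNA was 62.5% of the control in poGC and 74.1% in phGC. By qRT-PCR of the same RNA samples the paper reports a significant fall of FOXL2 in both stages. It also reports a fall of the protein by Western blot.

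To determine the effect of FOXL2-siRNA on the prostaglandin genes, poGC-KD was compared with poGC-CT (comp. poGC) and phGC-KD with phGC-CT (comp. phGC). In poGC, PTGS2 and PLA2G4A fell to 47.0% and 53.2% of the control level, the receptor gene PTGFR fell to 57.4%, PTGS1 fell to 82.6% and the receptor gene PTGER4 rose to 177%. In phGC, PLA2G4A fell to 65.8%, PTGES3 fell to 84.2% and HPGD, which inactivates prostaglandins, rose to 175%. In comp. poGC 5 of the 10 genes passed an adjusted p of 0.05 (edgeR quasi-likelihood, adjusted by Benjamini and Hochberg's method over every gene tested), where 28.7% of all 14379 genes did; 4 of the 10 were lower, against 13.5% of all genes, and 1 was higher, against 15.2%. In comp. phGC 3 of the 10 passed, against 10.1% of 13829 genes; 2 were lower, against 4.91%, and 1 was higher, against 5.15%. For 5 of the 10 genes every poGC-KD library lay on the same side of all poGC-CT libraries, against 31.9% of all genes, and in phGC this held for 4 of the 10, against 18.3%. The study's criteria for a DEG (fold change over 1.5 with p under 0.05, unadjusted) were met by 4 of the 10 in comp. poGC, against 11% of all genes, and by 3 of the 10 in comp. phGC, against 7.2%. The median size of the log2 change was 0.54 for the 10 genes and 0.20 for all genes in comp. poGC, and 0.36 and 0.19 in comp. phGC. In comp. poGC this median fell in a gap, as none of the 10 had a size between 0.28 (PTGS1) and 0.80 (PTGFR). The larger sizes include 1.03 for PTGER2, which had few counts in poGC and did not pass (edgeR adjusted p = 0.188). PLA2G4A was the 1 gene of the 10 that passed in both comparisons, and PTGER2, PTGER3 and PTGES passed in neither. The shares of all genes that passed in both or in neither were not counted. The 10 genes were chosen with earlier results of these data known, so the shares and medians given above do not test for an excess.

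**Figure D1:**
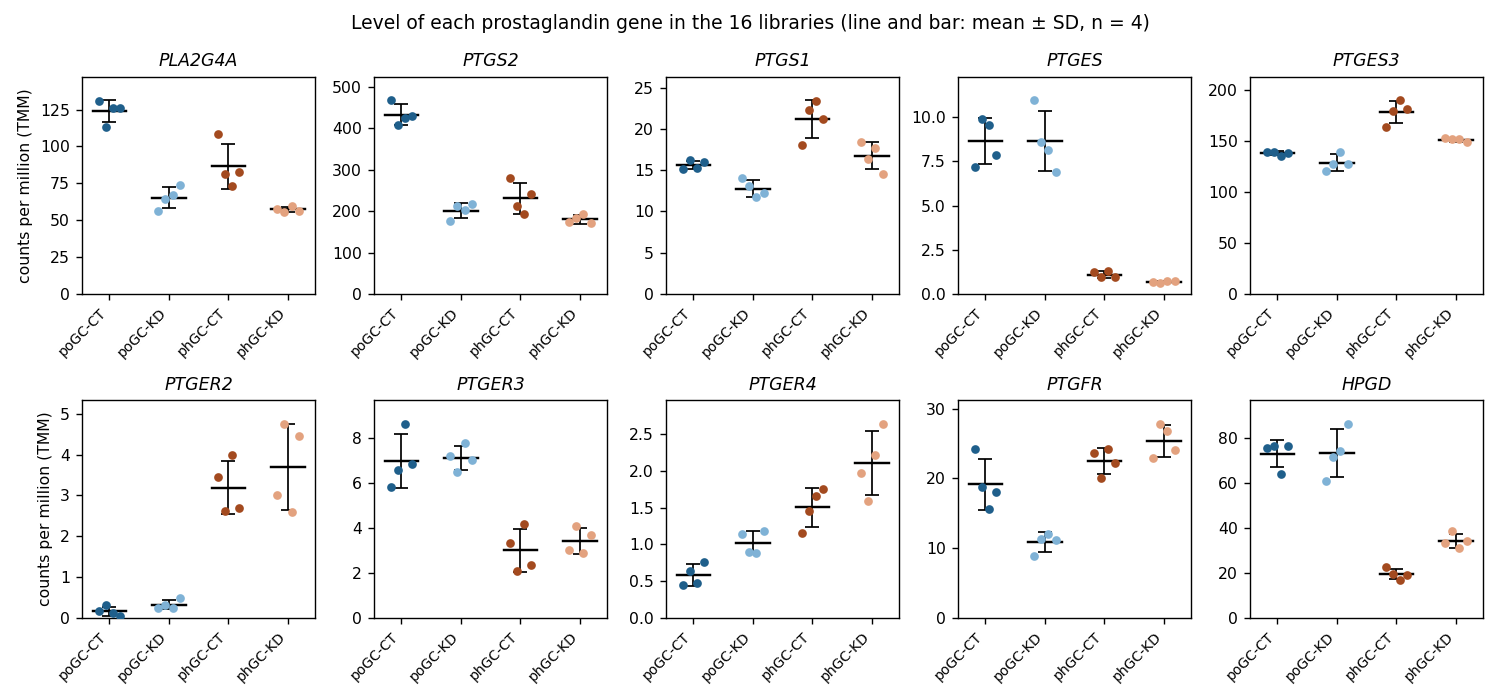
Level of each of the 10 genes in every library, in TMM-normalized CPM on an axis that starts at 0. Points are libraries, 4 in each group, and the line and bar are the mean and SD; PLA2G4A, PTGS2 and PTGFR of poGC-KD lie below all poGC-CT libraries, and HPGD of phGC-KD lies above all phGC-CT libraries.

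PLA2G4A encodes the cytosolic phospholipase that frees arachidonic acid. It was measured at 131, 113, 126 and 126 CPM in the 4 poGC-CT libraries and at 56.3, 64.5, 66.9 and 73.8 CPM in the 4 poGC-KD libraries. The groups did not overlap, and the fall on the log2 scale was 0.91 (SE 0.081, 95% confidence interval -1.09 to -0.73, edgeR adjusted p = 3.82e-05). In phGC the values were 109, 81.5, 73.5 and 83.0 CPM in phGC-CT and 57.7, 55.4, 59.7 and 56.6 CPM in phGC-KD. All phGC-KD libraries again lay below all phGC-CT libraries, of which replicate 1 was the highest. The log2 change was -0.60 (SE 0.11, edgeR adjusted p = 0.0101). Since these are bulk libraries, a lower share of cells that transcribe a gene and less transcript per cell cannot be told apart, here and for every gene below.

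PTGS2 encodes the inducible cyclooxygenase. The 4 poGC-CT libraries had 469, 408, 426 and 429 CPM and the 4 poGC-KD libraries 176, 211, 202 and 216 CPM, so that the highest KD library was far below the lowest control. The log2 change was -1.09 (SE 0.072, 95% confidence interval -1.25 to -0.93, edgeR adjusted p = 7.14e-06), a 2.13-fold fall and the largest change with an adjusted p under 0.05 among the 10 genes in either comparison. In phGC, PTGS2 was at 280, 212, 193 and 240 CPM with NC-siRNA and at 174, 183, 193 and 171 CPM with FOXL2-siRNA. phGC-CT replicate 3 and phGC-KD replicate 3 were at the same level, and the groups met there. The log2 change of -0.37 (SE 0.11, 95% confidence interval -0.61 to -0.13) had an unadjusted p of 0.00695 and an adjusted p of 0.0608 in edgeR. This call depended on the processing: without phGC-CT replicate 3 the log2 change was -0.45 (edgeR adjusted p = 0.0229), and the adjusted p was 0.017 with DESeq2 and 0.0183 in an edgeR fit of all 16 libraries. The other 12 of the 15 alternatives did not pass either, and over all 15 the log2 change ran from -0.45 to -0.27.

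**Figure D2:**
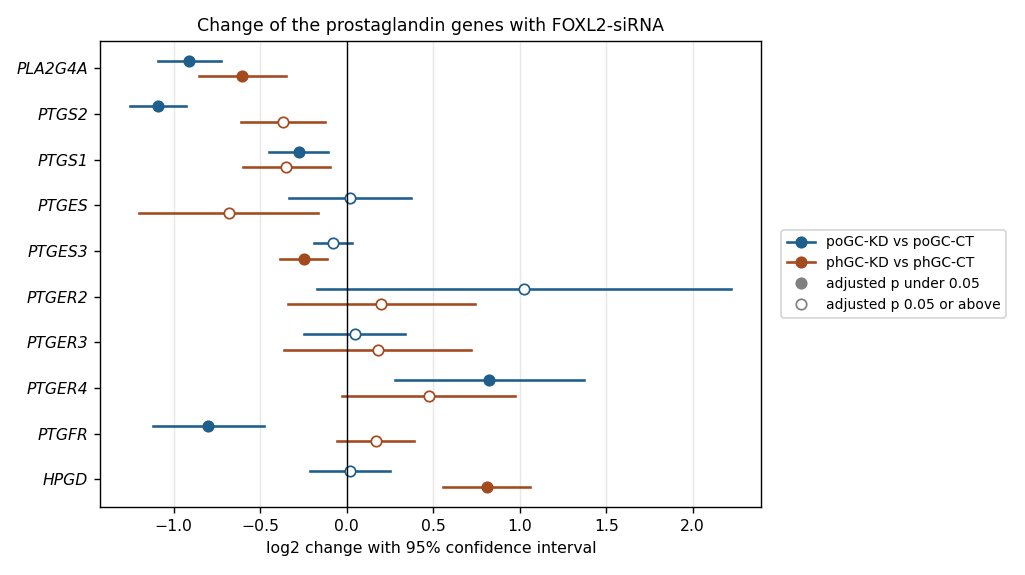
log2 change of the 10 genes with FOXL2-siRNA, with 95% confidence intervals from edgeR, for poGC (blue) and phGC (brown). Filled points had an adjusted p under 0.05; the intervals of PTGS2, PTGFR and HPGD in poGC lie below those in phGC, while those of PLA2G4A overlap.

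PLA2G4A and PTGS2, which catalyse consecutive steps, are also neighbours in the chicken genome: in the RefSeq annotation of GRCg7b, a build other than the one the study used, their annotated spans overlap over 8.79% of PTGS2 and 0.655% of PLA2G4A. The counting is not stated to use strand, so that reads from the shared stretch cannot be assigned to either gene with certainty. The next gene on the other side of PTGS2 is PDC, which encodes phosducin, a regulator of G protein signalling in the retina. PDC was weakly expressed, at 2.95 ± 0.45 CPM in poGC-CT, 1.48 ± 0.15 in poGC-KD, 1.097 ± 0.28 in phGC-CT and 0.505 ± 0.12 in phGC-KD (SD, n = 4 each). It fell by 0.98 on the log2 scale in poGC (SE 0.16, edgeR adjusted p = 0.00149) and by 1.13 in phGC (SE 0.29, edgeR adjusted p = 0.0395). None of the 5 tested neighbours of the other members that changed fell past the threshold. Among all genes 13.5% fell in poGC and 4.91% in phGC, so that few falls among 5 genes would be usual. PDCL, beside PTGS1, rose by 0.31 in poGC (edgeR adjusted p = 0.000814) and by 0.29 in phGC (edgeR adjusted p = 0.0305). CEP44, beside HPGD, rose by 0.35 in poGC (edgeR adjusted p = 0.0193) and did not pass in phGC (0.03, edgeR adjusted p = 0.847). ATP5B and NACA, beside PTGES3, and TTC33, beside PTGER4, passed in neither stage. Genes beside members that passed in neither comparison also fell in poGC. CTH, beside PTGER3, fell by 0.26 (edgeR adjusted p = 0.0128) and TOR1B, beside PTGES, by 0.14 (edgeR adjusted p = 0.0196). LOC417192, which overlaps PTGES, fell by 0.21 (edgeR adjusted p = 0.0303). ZRANB2, also beside PTGER3, rose by 0.25 there (edgeR adjusted p = 0.00329). These genes did not pass in phGC, and LOC107051813, beside PTGER2, passed in neither stage.

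The genes whose pattern was most like that of PTGS2 were found by the root mean square difference of centred log2 CPM over the 16 libraries, among the 14774 other genes tested. FLT1, which encodes a receptor for vascular endothelial growth factor, was the nearest with a difference of 0.12. It was followed by LOC100859860 at 0.14, PLA2G4A at 0.15, HSPA4, a heat shock protein gene, at 0.17 and FBXL2, an F-box protein gene, at 0.17. PLA2G4A thus ranked 3, and of the other 8 prostaglandin genes PTGES3 came nearest, at rank 5020. These likenesses are descriptions over libraries of the same 4 groups. FLT1 is known from endothelium. The summed level of a list of 6 endothelial genes was 44.4 to 73.4 CPM in poGC-CT and 38.7 to 70.5 CPM in poGC-KD, and it was 35.6 to 51.5 CPM in phGC-CT and 23.8 to 32.1 CPM in phGC-KD, without overlap. Most of it came from PECAM1, TIE1 and CDH5. PECAM1 had means of 25.5 CPM in poGC-CT and 25.3 CPM in poGC-KD, TIE1 24 and 23.9 CPM, and CDH5 7.20 and 2.27 CPM. In phGC-CT and phGC-KD the means were 11.3 and 8.49 CPM for PECAM1, 13.5 and 9.05 for TIE1 and 14.5 and 8.68 for CDH5. Of the endothelial genes tested 2 of 6 fell in poGC, against 13.5% of all genes, and 1 of 5 fell in phGC, against 4.91%. None of the endothelial genes rose (edgeR), against 15.2% of all genes in poGC and 5.15% in phGC. The part of these cells in the likeness was not tested.

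PTGS1 encodes the constitutive cyclooxygenase. It was measured at 15.2, 16.2, 15.2 and 15.95 CPM in poGC-CT and at 14.01, 13.1, 11.7 and 12.3 CPM in poGC-KD. The groups did not overlap, but the fall was small, 0.28 on the log2 scale (SE 0.076, edgeR adjusted p = 0.0225). The adjusted p was 0.0551 without poGC-KD replicate 3 and 0.0514 without poGC-CT replicate 4. In phGC the values were 18.1, 22.2, 23.4 and 21.2 CPM with NC-siRNA and 18.4, 16.4, 17.6 and 14.6 CPM with FOXL2-siRNA. phGC-CT replicate 1 lay within the range of the KD libraries. The log2 change of -0.35 (SE 0.11) did not pass the test (edgeR adjusted p = 0.0817), but it did without phGC-CT replicate 1 (edgeR adjusted p = 0.0294), and the adjusted p was 0.0311 with DESeq2 and 0.0183 in the fit of all 16 libraries. The other 12 of the 15 alternatives did not pass, and over all 15 the log2 change ran from -0.42 to -0.27. The 2 cyclooxygenase genes thus had lower means in the KD group of both stages, and the difference of the PTGS1 effect between the stages was 0.05 on the log2 scale (95% confidence interval -0.23 to 0.33, edgeR adjusted p = 0.883).

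PTGES encodes the membrane-bound, inducible prostaglandin E synthase. In poGC it was at 7.20, 9.89, 9.56 and 7.87 CPM with NC-siRNA and at 10.97, 8.59, 8.13 and 6.89 CPM with FOXL2-siRNA. The groups overlapped widely, and the log2 change was 0.02 (SE 0.16, 95% confidence interval -0.34 to 0.37, edgeR adjusted p = 0.946). In phGC the gene was close to the limit of detection, with 31 to 40 counts in a phGC-CT library and 18 to 32 in a phGC-KD library. These counts were 1.22, 0.943, 1.28 and 0.952 CPM in phGC-CT and 0.695, 0.597, 0.739 and 0.713 CPM in phGC-KD, without overlap. The log2 change of -0.68 (SE 0.23) met the study's DEG criteria (unadjusted p = 0.015) and did not pass the adjusted test (edgeR adjusted p = 0.0957). In the fit of all 16 libraries its adjusted p was 0.0145, while the other 14 of the 15 alternatives did not pass.

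PTGES3 encodes the cytosolic prostaglandin E synthase, a protein that is also a co-chaperone of the heat shock machinery. Its values were 138, 139, 135 and 138 CPM in poGC-CT and 120, 127, 139 and 128 CPM in poGC-KD. poGC-KD replicate 3 was as high as the controls, and the log2 change was -0.08 (SE 0.049, edgeR adjusted p = 0.25). In phGC the values were 163, 179, 190 and 181 CPM with NC-siRNA and 152, 151, 151 and 148 CPM with FOXL2-siRNA. The 4 KD libraries lay close together and below every control. The fall of 0.25 on the log2 scale (SE 0.061) passed the test (edgeR adjusted p = 0.0321), but leaving out 7 of the 8 libraries in turn, each except phGC-CT replicate 1, gave adjusted p-values of 0.0618 to 0.101.

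PTGER2, PTGER3 and PTGER4 encode receptors for prostaglandin E, and PTGFR encodes the receptor for prostaglandin F. PTGFR was measured at 24.2, 18.8, 15.6 and 17.97 CPM in poGC-CT and at 8.91, 11.3, 12.1 and 11.2 CPM in poGC-KD. The groups did not overlap, although poGC-CT replicate 1 stood above the other controls, and the fall was 0.80 on the log2 scale (SE 0.14, 95% confidence interval -1.12 to -0.48, edgeR adjusted p = 0.00256). In phGC it was at 23.6, 20.02, 24.1 and 22.1 CPM with NC-siRNA and at 23.0, 27.8, 26.8 and 24.0 CPM with FOXL2-siRNA. These groups overlapped. The log2 change was 0.17 (SE 0.099, 95% confidence interval -0.05 to 0.39, edgeR adjusted p = 0.322). In the GRCg7b annotation the protein-coding gene LOC124418137 overlaps 5.21% of the PTGFR span, and its symbol was not found in the files used here.

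PTGER4 was expressed at a low level. It had 0.450, 0.633, 0.479 and 0.765 CPM in poGC-CT and 1.14, 0.899, 0.876 and 1.18 CPM in poGC-KD, from 16 to 55 counts in a library. The KD libraries all lay above the controls, with a log2 change of 0.83 (SE 0.24, edgeR adjusted p = 0.031). The call was not stable: leaving out poGC-KD replicate 1, 2 or 4 or poGC-CT replicate 1, 2 or 3 gave adjusted p-values of 0.0523 to 0.0862 and log2 changes of 0.72 to 0.87. In phGC it was at 1.15, 1.46, 1.66 and 1.75 CPM with NC-siRNA and at 1.98, 1.59, 2.22 and 2.64 CPM with FOXL2-siRNA. The phGC groups overlapped, and the log2 change of 0.47 (SE 0.22) did not pass the test (edgeR adjusted p = 0.213). In the GRCg7b annotation a long non-coding RNA gene overlaps 64.1% of the PTGER4 span. Its symbol was not found in the files used here.

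PTGER3 was measured at 5.83, 6.57, 8.64 and 6.84 CPM in poGC-CT and at 7.19, 6.49, 7.76 and 7.04 CPM in poGC-KD. In phGC its levels were 3.33, 2.1, 4.19 and 2.36 CPM with NC-siRNA and 2.998, 4.08, 2.9 and 3.68 CPM with FOXL2-siRNA. The KD libraries lay within the range of the controls in both stages, and the log2 changes were 0.05 (95% confidence interval -0.24 to 0.34) and 0.18 (95% confidence interval -0.36 to 0.72). PTGER2 was nearly absent from poGC, with 2 to 14 counts in a poGC-CT library and 12 to 22 in a poGC-KD library. The poGC-CT levels were 0.169, 0.306, 0.115 and 0.0402 CPM and the poGC-KD levels 0.248, 0.300, 0.245 and 0.474 CPM. At this depth no difference was detectable (log2 change 1.03, 95% confidence interval -0.17 to 2.22, edgeR adjusted p = 0.188). In phGC it was at 3.46, 2.62, 3.997 and 2.70 CPM with NC-siRNA and at 2.998, 4.74, 2.59 and 4.46 CPM with FOXL2-siRNA, again with overlap (log2 change 0.20, SE 0.24, edgeR adjusted p = 0.637).

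HPGD encodes the hydroxyprostaglandin dehydrogenase, which starts the inactivation of prostaglandins. In phGC it was measured at 22.6, 19.4, 16.7 and 19.03 CPM with NC-siRNA and at 33.0, 38.6, 31.1 and 34.04 CPM with FOXL2-siRNA. The lowest KD library was well above the highest control, and the log2 change was 0.81 (SE 0.11, 95% confidence interval 0.56 to 1.06, edgeR adjusted p = 0.00281). In poGC the values were 75.3, 76.4, 63.8 and 76.2 CPM with NC-siRNA and 60.6, 71.6, 74.2 and 86.2 CPM with FOXL2-siRNA. The KD libraries spread around the controls, and the log2 change was 0.02 (SE 0.10, 95% confidence interval -0.21 to 0.25, edgeR adjusted p = 0.914). Set against HPGD per length, the PTGS2 level was 4.98 ± 0.34 times that of HPGD in phGC-CT and 2.24 ± 0.26 times in phGC-KD, and 2.54 ± 0.26 times in poGC-CT and 1.19 ± 0.091 times in poGC-KD (ratio of deposited FPKM, SD, n = 4 each). The ratio was lower in the KD group of both stages without overlap: in phGC both genes moved, PTGS2 short of the threshold, and in poGC only the PTGS2 change passed the test.

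To determine whether the effect of the siRNA differed between the stages, the change in poGC minus the change in phGC was tested as an interaction in an edgeR model of all 16 libraries. Of the 10 genes 3 passed an adjusted p of 0.05, against 9.24% of all 14775 genes tested. All 3 differences were negative, against 4.77% of all genes with a negative difference past the threshold and 4.47% with a positive one, and 4 of the 10, PTGES included, had a difference above 1.5-fold with an unadjusted p under 0.05, against 8.58% of all genes. PTGS2 fell more in poGC, by a difference of -0.74 on the log2 scale (SE 0.14, edgeR adjusted p = 0.00273). PTGFR fell in poGC and had a change of 0.17 in phGC, a difference of -0.99 (SE 0.18, edgeR adjusted p = 0.00223). HPGD had a change of 0.02 in poGC and rose in phGC, a difference of -0.81 (SE 0.16, edgeR adjusted p = 0.00376). PLA2G4A, which passed the test in both stages, had a difference of -0.33 (SE 0.15, edgeR adjusted p = 0.199). Without phGC-CT replicate 1 this was -0.46 (edgeR adjusted p = 0.0128), while the other 21 of the 22 alternatives did not pass. For FOXL2 itself the difference was -0.27 (SE 0.17, edgeR adjusted p = 0.392).

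The stages were then compared with each other, first in the control libraries (poGC-CT against phGC-CT). These control libraries are the same ones that the KD groups were compared with. PTGES, PTGER3, HPGD, PTGS2 and PLA2G4A were higher in poGC, and PTGER2, PTGER4, PTGS1 and PTGES3 were lower. These 9 of the 10 genes passed an adjusted p of 0.05 in edgeR, against 64% of all 14089 genes tested, so that a difference between the stages was common among all genes. The 5 higher genes compare with 32.4% of all genes and the 4 lower ones with 31.5%. The same 9 genes did not overlap between the stages, against 60.3% of all genes, and 6 met the DEG criteria, against 41.6%. The median size of the log2 difference was 1.06 for the 10 genes and 0.52 for all genes.

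Among the genes higher in poGC-CT, PTGES had the widest gap, at 8.63 ± 1.3 CPM against 1.098 ± 0.17 CPM in phGC-CT (SD, n = 4), a log2 difference of 2.97 (SE 0.17, edgeR adjusted p = 9.21e-07) or 7.85-fold. In the GRCg7b annotation 12.4% of the PTGES span overlaps LOC417192, which was at 37.1 ± 2.2 CPM in poGC-CT and 1.43 ± 0.12 CPM in phGC-CT, a log2 difference of 4.69 (SE 0.098, edgeR adjusted p = 3.71e-09); this gene was looked at after its values were seen. Without a stated strand the reads of the 2 genes cannot be told apart where they overlap. HPGD was 3.75-fold higher in poGC-CT (log2 difference 1.91, SE 0.11, edgeR adjusted p = 7.19e-07) and PTGER3 was 2.33-fold higher (1.22, SE 0.23, edgeR adjusted p = 0.00157). PTGS2 was 1.87-fold higher (0.90, SE 0.11, edgeR adjusted p = 0.00011) and PLA2G4A 1.43-fold higher (0.52, SE 0.12, edgeR adjusted p = 0.00389).

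Among the genes lower in poGC-CT, PTGER2 differed most, with 0.157 ± 0.11 CPM against 3.19 ± 0.66 CPM in phGC-CT (SD, n = 4), a log2 difference of -4.33 (SE 0.47, edgeR adjusted p = 4.93e-05). Its size rests on the few counts in poGC-CT and ran from -4.88 to -1.64 over the alternatives, of which the last is the FPKM scale with 1 added. PTGER4 was lower by 1.36 on the log2 scale (SE 0.25, edgeR adjusted p = 0.00123). PTGS1 was lower by 0.44 (SE 0.089, edgeR adjusted p = 0.00213) and PTGES3 by 0.37 (SE 0.052, edgeR adjusted p = 0.000215). PTGFR did not pass, at -0.23 (95% confidence interval -0.54 to 0.07, edgeR adjusted p = 0.152), but did without poGC-CT replicate 1 (-0.36, edgeR adjusted p = 0.0175). Of its 15 alternatives 13 did not pass.

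In the libraries with FOXL2-siRNA 8 of the 10 genes passed between the stages (poGC-KD against phGC-KD, 3 higher and 5 lower in poGC), against 60.9% of 14349 genes, 30.9% higher and 30% lower. These 8 did not overlap, against 58.2% of all genes, and 6 met the DEG criteria, against 37.7%. This comparison was added after the data were seen. PTGS2 was at 202 ± 18 CPM in poGC-KD and 180.1 ± 10 CPM in phGC-KD (SD, n = 4), with overlapping groups and a log2 difference of 0.15 (95% confidence interval -0.02 to 0.33, edgeR adjusted p = 0.111). PLA2G4A was at 65.4 ± 7.2 CPM and 57.3 ± 1.8 CPM, a log2 difference of 0.18 (95% confidence interval -0.01 to 0.37, edgeR adjusted p = 0.0862). PTGFR was lower in poGC-KD by 1.23 on the log2 scale (SE 0.11, edgeR adjusted p = 8.06e-06). The HPGD difference was 1.09 (SE 0.11, edgeR adjusted p = 1.94e-05) and the PTGES difference 3.64 (SE 0.18, edgeR adjusted p = 8.92e-08).

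**Figure D3:**
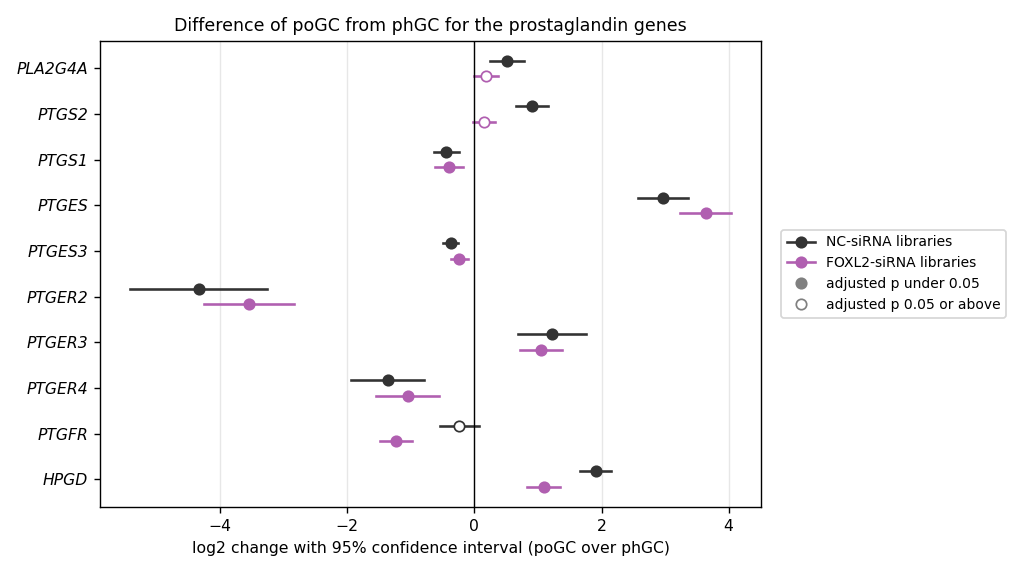
log2 difference of poGC from phGC for the 10 genes, with 95% confidence intervals from edgeR, in the NC-siRNA libraries (black) and the FOXL2-siRNA libraries (purple). Filled points had an adjusted p under 0.05; PTGS2 and PLA2G4A lie at 0.90 and 0.52 with NC-siRNA and at 0.15 and 0.18 with FOXL2-siRNA, where their intervals reach 0.

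Levels were compared between genes per length, with the FPKM values that the authors deposited. In poGC-CT, PTGS2 had the highest level of the 10 genes at 90.3 FPKM, followed by PTGES3 at 69.4, HPGD at 35.8 and PLA2G4A at 19.2 FPKM, and the libraries of these neighbours in the order did not overlap. PTGFR (5.18 FPKM) overlapped with PTGES (5.13) and PTGES with PTGER3 (4.27), and all PTGER3 libraries lay above those of PTGS1 (3.41). PTGER4 (0.129 FPKM) and PTGER2 (0.110) were lowest and overlapped. In phGC-CT, PTGES3 was highest at 105 FPKM, above PTGS2 at 50.6. PLA2G4A (14.2 FPKM) and HPGD (10.1) overlapped and were followed by PTGFR (6.87) and PTGS1 (4.84). PTGER2 (2.48 FPKM) and PTGER3 (1.92) overlapped, above PTGES (0.797) and PTGER4 (0.357).

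With FOXL2-siRNA, PTGES3 was highest in both stages, at 72.3 FPKM in poGC-KD and 91.5 FPKM in phGC-KD. PTGS2 came next at 44.0 FPKM in poGC-KD, where it overlapped with HPGD at 37.2, and at 39.2 FPKM in phGC-KD, above HPGD at 17.6. PTGS2 exceeded PTGS1 per length in every library, by 26.5 ± 2.3 times in poGC-CT, 15.4 ± 2.2 in poGC-KD, 10.7 ± 2.9 in phGC-CT and 10.3 ± 0.88 in phGC-KD (SD, n = 4 each). Of the summed FPKM of the 4 receptor genes PTGFR made up 53.3% ± 8.4 in poGC-CT, 37.8% ± 3.7 in poGC-KD, 59.3% ± 6.0 in phGC-CT and 55.9% ± 4.9 in phGC-KD (SD, n = 4 each). Of these 4 genes PTGER3 thus had the highest level per length in poGC-KD at 4.52 FPKM, above PTGFR at 3.05. The ratio of CPM to FPKM of a gene was not quite the same in every library, differing at most 1.61-fold for PTGES and 1.36-fold for PTGFR, against a median of 1.104-fold for all genes.

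**Figure D4:**
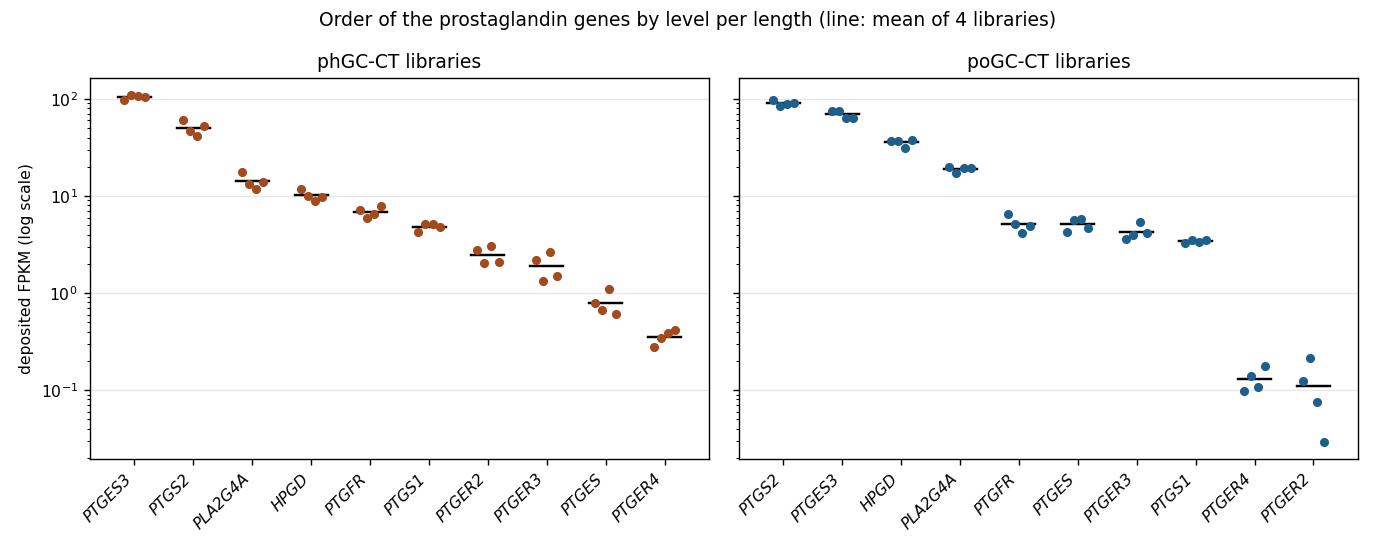
Deposited FPKM (log axis) of the 10 genes in the 4 phGC-CT libraries and the 4 poGC-CT libraries, ordered by the mean, with points for libraries and a line for the mean. PTGES3 leads in phGC-CT at 105 FPKM and PTGS2 leads in poGC-CT at 90.3 FPKM; PTGER4 and PTGER2 lie far below the other genes in poGC-CT.

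Other genes of the eicosanoid pathways were taken from a hand-made list of 79 symbols, of which 56 were in the files. This list too was made with earlier results of these data known, so its shares do not test for an excess. In comp. poGC 50 of them were tested, and 7 rose and 11 fell by edgeR's adjusted p, 36% against 28.7% of all genes. In comp. phGC 51 were tested, and 7 rose and 3 fell, 19.6% against 10.1% of all genes. HPGDS, which encodes a prostaglandin D synthase, was expressed at 583 FPKM in poGC-CT and 1377 FPKM in phGC-CT. It fell from 643 ± 41 to 316 ± 46 CPM in poGC (SD, n = 4), by 1.009 on the log2 scale (SE 0.10, edgeR adjusted p = 0.000101). In phGC it fell from 1445 ± 216 to 860.2 ± 130.0 CPM (SD, n = 4), by 0.76 (SE 0.13, edgeR adjusted p = 0.00834). PTGES2, the remaining prostaglandin E synthase gene, was at 47.8 ± 4.5 CPM in poGC-CT and 43.2 ± 4.9 CPM in poGC-KD and did not pass in either comparison.

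Of the 9 listed genes for prostaglandin breakdown and transport 6 were tested. Of these 6, 3 passed in poGC, 50% against 28.7% of all genes, and 1 passed in phGC, 16.7% against 10.1%. ABCC4, an exporter of prostaglandins in mammals, fell from 82.2 ± 9.9 to 44.4 ± 7.3 CPM in poGC (SD, n = 4; log2 change -0.88, edgeR adjusted p = 0.00129), whereas in phGC its log2 change was 0.20 (edgeR adjusted p = 0.426). The difference between the stages was -1.101 (SE 0.21, edgeR adjusted p = 0.00396). SLCO2A1, the prostaglandin transporter, did not pass in poGC (log2 change -0.34, edgeR adjusted p = 0.0547) or in phGC (0.44, edgeR adjusted p = 0.124), but its difference between the stages did (-0.80, SE 0.21, edgeR adjusted p = 0.0267). SLCO3A1, an uptake carrier, rose in both stages, by 0.58 in poGC (edgeR adjusted p = 0.00146) and by 0.96 in phGC (edgeR adjusted p = 0.00203). Of the 14 listed genes for the handling of arachidonic acid and the induction of PTGS2, 13 were tested. In poGC 2 of them rose and 4 fell, against 15.2% and 13.5% of all genes. In phGC 3 rose and 1 fell, against 5.15% and 4.91%. ACSL4, which activates arachidonic acid, fell by 0.46 in poGC (edgeR adjusted p = 0.000726) and rose by 0.39 in phGC (edgeR adjusted p = 0.0402), with an interaction of -0.88 (SE 0.13, edgeR adjusted p = 0.00047). LPCAT3, which returns arachidonic acid to phospholipids, rose in both, by 0.30 in poGC (edgeR adjusted p = 0.00209) and by 0.73 in phGC (edgeR adjusted p = 0.000269). MBOAT7, another arachidonate acyltransferase gene, fell by 0.37 in poGC (edgeR adjusted p = 0.034) and had a log2 change of 0.03 in phGC (95% confidence interval -0.70 to 0.75, edgeR adjusted p = 0.966).

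**Figure D5:**
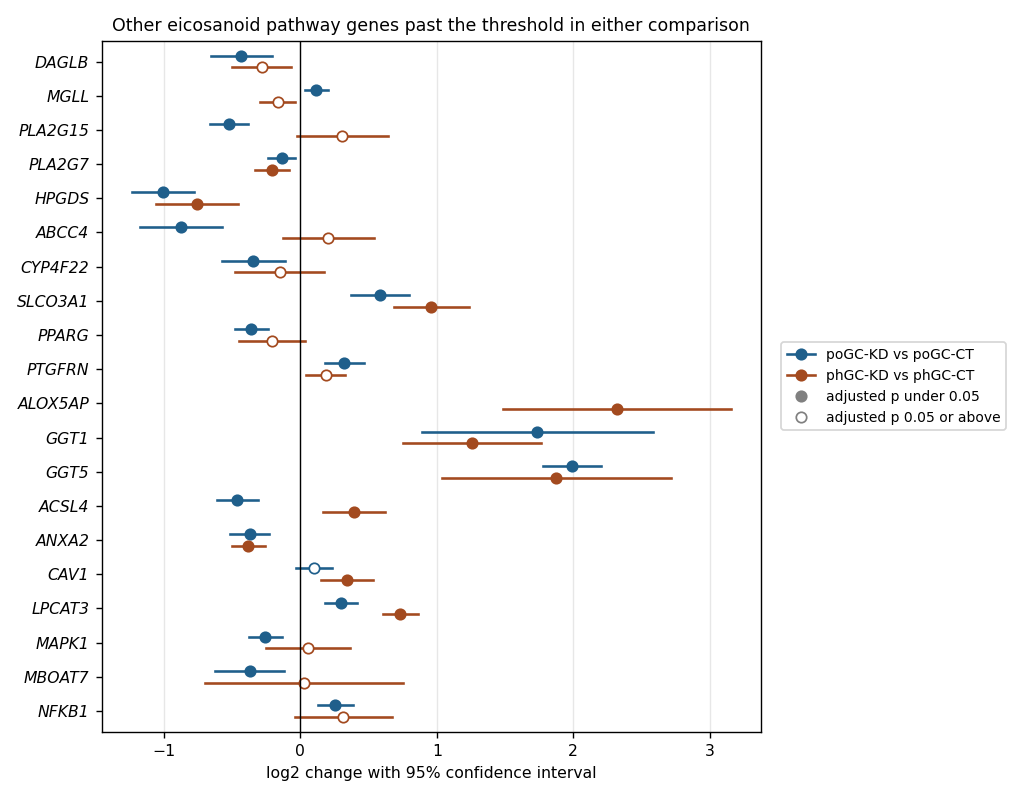
log2 change with FOXL2-siRNA and 95% confidence interval from edgeR for the 20 other pathway genes with an adjusted p under 0.05 (filled points) in poGC (blue) or phGC (brown), ordered by role. HPGDS lies below 0 in both stages, SLCO3A1, GGT1, GGT5 and LPCAT3 lie above 0 in both, and ACSL4 lies on opposite sides.

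Markers of granulosa cells and of other cell types of the follicle were measured beside these genes. All 12 granulosa genes of a list were above 1 CPM in every group, with a summed level of 1838 to 2079 CPM in poGC-KD, 2120 to 2289 in poGC-CT, 2619 to 3218 in phGC-CT and 3015 to 3831 in phGC-KD. This list holds FOXL2 itself, with means of 735 CPM in poGC-CT and 455 CPM in poGC-KD. AMH had means of 49 CPM in poGC-CT and 1600 CPM in phGC-CT, while CYP11A1 had 522 and 158 CPM. Of the 12 genes 2 rose and 5 fell in poGC (edgeR), against 15.2% and 13.5% of all genes. In phGC 2 rose, against 5.15%. Between the control stages 7 were higher in poGC and 3 lower, against 32.4% and 31.5%. The 5 smooth muscle genes summed to 303 to 476 CPM in poGC-KD against 820.5 to 1005 CPM in poGC-CT, and to 357 to 420 CPM in phGC-KD against 744.5 to 840 CPM in phGC-CT. Nearly all of this was ACTA2. TAGLN had means of 25.1 CPM in poGC-CT and 9.76 CPM in poGC-KD, and of 41.6 CPM in phGC-CT and 18.6 CPM in phGC-KD, and MYH11 and DES had group means of 0.251 to 3.03 CPM. Of these 5 genes 3 fell and 1 rose in poGC (edgeR), against 13.5% and 15.2% of all genes. In phGC 2 of the 5 fell, against 4.91% of all genes. The 8 theca and fibroblast genes summed to 1026 to 1106 CPM in poGC-KD, 1494 to 1578 in poGC-CT, 5563 to 6346 in phGC-CT and 5160 to 6305 in phGC-KD. COL3A1 had the highest mean among them in each group, 517 CPM in poGC-KD, 958 in poGC-CT, 4050 in phGC-KD and 4340 in phGC-CT. The COL1A1 mean went the other way with FOXL2-siRNA, from 92.5 to 144 CPM in poGC and from 898 to 1080 CPM in phGC. DCN had means of 7.51 CPM in poGC-CT and 0.298 CPM in phGC-CT. Of the 7 genes tested in poGC 1 rose and 3 fell (edgeR), against 15.2% and 13.5% of all genes. In phGC 1 of 8 fell, against 4.91%. Between the control stages 1 of 8 was higher in poGC and 5 were lower, against 32.4% and 31.5%. The 7 leukocyte genes in the files summed to 86.0 to 94.3 CPM in poGC-KD, 113 to 127 in poGC-CT, 70.1 to 89.2 in phGC-CT and 47.5 to 66.3 in phGC-KD, mostly from CD74, with PTPRC at 0.494 to 1.80 CPM and CD4 and CD8A at or near 0. Of 6 blood cell genes 1 was found, HBAD, below 1 CPM in every library. Several of these sums moved with the siRNA or the stage, not all in the direction of PLA2G4A and PTGS2. The granulosa sum and the theca and fibroblast sum were lower in poGC-CT than in phGC-CT, whereas PLA2G4A and PTGS2 were higher. The part of these cell types in the results above was not tested.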

How the data were processed

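Poly(A) RNA of 16 libraries, 4 for each group of the labels, was sequenced as paired ends on the HiSeq X-ten. For each library the authors deposited a raw count of reads per gene, not normalized, and an FPKM value per gene, scaled by them for transcript length and mapped fragments. The paper names TopHat2 and the chicken genome Gallus_gallus-5.0 for mapping, while the submitters' processing notes name HISAT2 2.1.0, StringTie 1.3.4d and DESeq2 1.26.0. The counter, its annotation and strand setting are not given in the sources used here, which bears on overlapping genes.

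Groups were compared in R 4.3.3 with edgeR 4.0.16 and its quasi-likelihood test, run on the counts of the 2 groups, with TMM, filterByExpr and Benjamini-Hochberg adjustment over all genes tested; the interaction used all 16 libraries. The steps were tested on simulated data. CPM was normalized by TMM over the 16 libraries. FPKM served to compare levels between genes and, as log2(FPKM + 1) in limma 3.58.1, as an alternative. DESeq2 1.42.0, upper-quartile scaling, 2 other filters, a replicate block, a fit of all libraries and leaving out each library were the other alternatives. The named genes were the 10 members, FOXL2, the 5 genes most like PTGS2, neighbours of members, and pathway genes past the threshold. The members and the lists were chosen with earlier results of these data known. Totals of 29979116 to 56121795 counts set the depth; the spread between libraries includes counting error. Gene names and neighbours came from the RefSeq table of GRCg7b, whose coordinates served for neighbours and overlaps and are not printed. No library was left out.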

Additional observations from a re-analysis of the deposited data

Results flagged for a closer look

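The effect of FOXL2-siRNA differed between the stages for 3 of the prostaglandin genes, by the interaction term in edgeR over 16 libraries. The log2 change in poGC minus that in phGC was -0.74 for PTGS2 (edgeR adjusted p = 0.00273), -0.99 for PTGFR (edgeR adjusted p = 0.00223) and -0.81 for HPGD (edgeR adjusted p = 0.00376). PTGS2 and PTGFR were lower in 4 of 4 poGC-KD libraries than in any poGC-CT library, and HPGD was higher in 4 of 4 phGC-KD libraries than in any phGC-CT library. Such a lack of overlap, in either direction, held for 31.9% of all genes in poGC and 18.3% in phGC.

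In 2 of the 40 sets of 4 libraries (10 genes in 4 groups) a library stood apart from the other 3 by Dixon's criterion, about as many as the 1 in 20 that chance gives. Both were in poGC-CT replicate 3. PTGES3 was at 134.5 CPM there and at 138 to 139 CPM in the other poGC-CT libraries. HPGD was at 63.8 CPM there and at 75.3 to 76.4 CPM in the others.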

How the results depend on the processing

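Over all alternatives, 637 of 667 refits of the 10 genes stayed on the same side of the threshold, 20 lost the call, 10 gained it and no call changed direction; values short of the threshold could change sign, as PTGES3 in poGC did (-0.13 to 0.06). In comp. poGC 5 of the 10 genes passed, and 4 in each fit that left out a library, where 3305 to 3920 of all genes passed. With the replicate number as a block 3 passed (PTGS1 adjusted p = 0.0597, PTGER4 0.0602) and 3316 instead of 4127 of all genes. No source used here states that the numbers pair the libraries. Same-numbered libraries had deviations correlated at -0.117 to 0.0303 in poGC and -0.125 to 0.219 in phGC. Not every library correlated best with its own number, but the phGC libraries numbered 1 did. With 4 libraries in a group these correlations cannot exclude a shared hen or culture. On the FPKM scale PTGS1 in poGC (limma adjusted p = 0.0514) and PTGES3 in phGC (0.0541; 0.0584 with the block) lost the call, and PTGFR gained it between the control stages (0.0349). In comp. phGC 3 genes passed, 2 to 4 when a library was left out, 5 with DESeq2 and 6 in the fit of all 16 libraries; among all genes 1391 passed, 705 to 2065 when a library was left out, 2261 with DESeq2 and 2562 in the fit of all libraries. The interaction gave 3, and 3 to 4 without a library, while among all genes it gave 1365, and 1060 to 1837 without a library. The control stages gave 9, and 9 to 10 without a library, while among all genes they gave 9014, and 8347 to 9335 without a library. A minimum of 10 counts in every library left PTGER2 untested except in comp. phGC, so that low counts limit what can be said of it. The causes of these shifts were not tested.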

Other observations

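Of the listed genes of the leukotriene branch, which shares arachidonic acid with the prostaglandins, 2 of 6 tested rose in poGC (33.3%, against 28.7% of all genes in either direction) and 3 of 7 in phGC (42.9%, against 10.1%), and none fell. LTA4H, ALOX5, LTC4S and CYSLTR1 passed in neither stage, among them LTA4H with means of 90.6 to 134 CPM. GGT5 and GGT1 encode enzymes that trim leukotriene C. GGT5 rose from 5.75 ± 0.66 to 22.6 ± 1.1 CPM in poGC (SD, n = 4; log2 change 1.99, SE 0.095, edgeR adjusted p = 1.46e-06) and from 0.452 ± 0.25 to 1.68 ± 0.26 CPM in phGC (1.87, SE 0.37, edgeR adjusted p = 0.0141). GGT1 rose by 1.74 on the log2 scale in poGC (edgeR adjusted p = 0.0073) and by 1.258 in phGC (edgeR adjusted p = 0.00907), from group means under 1 CPM. ALOX5AP, the partner protein of the lipoxygenase ALOX5, rose in phGC from 5 to 13 counts in a library to 33 to 58 counts (log2 change 2.32, SE 0.37, edgeR adjusted p = 0.0055). In poGC it was too low to be tested.

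Between the stages, 37 of the 50 other pathway genes tested passed in the control libraries (19 higher and 18 lower in poGC), 74% against 64% of all genes. ALOX5 was at 1.06 ± 0.16 CPM in poGC-CT and 14.8 ± 2.2 CPM in phGC-CT (SD, n = 4; log2 difference -3.81, edgeR adjusted p = 1.64e-07). PLA2G3, a secreted phospholipase, was 8.37-fold higher in poGC-CT (edgeR adjusted p = 5.02e-06) and ACSL4 4.03-fold higher (edgeR adjusted p = 2.58e-07). AKR1B1, which has prostaglandin F synthase activity in humans, was lower in poGC-CT by 1.68 on the log2 scale (edgeR adjusted p = 2.48e-07). TBXA2R, the thromboxane receptor gene, was at 115 ± 8.9 CPM in poGC-CT and 74.7 ± 8.2 CPM in phGC-CT (SD, n = 4; log2 difference 0.63, edgeR adjusted p = 0.000207).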
